A study of Arabidopsis thaliana with 12 samples.

Results

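Jasmonate is the hormone that switches leaves from growth to defence, and the effect of losing the kinase CDK8 was followed in rosettes of *Arabidopsis thaliana* in which that switch is already on. The comparison is between the lines jazD cdk8-1 and jazD, with 3 RNA sequencing libraries each, 6 of the 12 libraries of the study, chosen by the genotype that each count column names. The line jazD carries mutations in *JAZ1* to *JAZ7*, in *JAZ9* and *JAZ10* and in *JAZ13*, which are 10 of the genes for JAZ repressors, so both groups lack most of these proteins. The line jazD cdk8-1 carries the *cdk8-1* mutation as well, and Col-0 is the wild type with both *JAZ* and *CDK8* intact. The remaining libraries, 3 of Col-0 and 3 of cdk8-1, gave levels for reference and the effect of the same mutation with intact *JAZ* genes. All plants were 25 days old and were grown in soil at 20 °C with 16 h of light and 8 h of darkness a day. A library came from whole rosettes, without roots, pooled from about 10 plants, and all genotypes stood in 1 tray. A replicate is therefore a pool, differences among single plants are not seen, and each genotype is 1 line.

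In the textbook account, JAZ proteins bind MYC transcription factors and hold jasmonate-responsive genes off until the receptor COI1, loaded with jasmonoyl-isoleucine, sends them for degradation. In leaves the response has a wound and anti-insect branch run by MYC factors and a branch run by ERF factors such as ORA59, which needs ethylene too and produces antifungal defensins. Mediator is the protein bridge between such factors and RNA polymerase II. CDK8, cyclin C, MED12 and MED13 form its detachable kinase module.

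Library totals of the 6 libraries lay between 17583467 and 21030374 expected counts, and 19059 of 33323 loci had enough counts for testing. Levels are CPM, counts scaled to a common library size, after TMM scaling. A change is a log2 fold change of jazD cdk8-1 over jazD, followed by its approximate standard error, and a gene is called where edgeR's quasi-likelihood test gave an adjusted p below 0.05 over all genes tested. In bulk tissue, fewer cells of a type and less RNA per cell cannot be told apart. Summed over 5 leaf markers, levels ran from 31600 to 35300 CPM in jazD and from 37400 to 39200 CPM in jazD cdk8-1, with none of the 5 at 0. Sums over 8 flower markers ran from 0.671 to 0.853 CPM in jazD and from 0.999 to 1.79 CPM in jazD cdk8-1, with *AP1*, which specifies floral meristems, at 0 in all 6 libraries. Sums over 8 root markers ran from 32.4 to 33.7 CPM and from 41.1 to 42.2 CPM, and 3 of these markers were at 0 in each group, namely *RHD6*, *EXPA7* and *COBL9*, genes that define root hairs. The part of these shifts in any result was not tested.

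The kinase gene itself came first. *CDK8* stood at 21.1, 20.1 and 20.1 CPM in the 3 jazD libraries and at 2.73, 3.3 and 3.29 CPM in those of jazD cdk8-1. That is 6.53-fold lower (-2.71 ± 0.10), the groups did not overlap, and some reads remained in every mutant library. Of the other genes of the kinase module, 2 were slightly higher: *MED12*, the scaffold of the module, by 0.17 ± 0.06 and *MED13*, its link to core Mediator, by 0.23 ± 0.08. These small rises depend on single libraries: without jazD replicate 1 they were 0.12 (adjusted p = 0.152, edgeR) and 0.13 (adjusted p = 0.194, edgeR). They were 0.18 (adjusted p = 0.0539, edgeR) and 0.23 (adjusted p = 0.0515, edgeR) without jazD cdk8-1 replicate 2, and 0.14 (adjusted p = 0.111, edgeR) and 0.19 (adjusted p = 0.106, edgeR) without jazD cdk8-1 replicate 3. Without jazD replicate 2 that of *MED12* was 0.17 (adjusted p = 0.0515, edgeR). Both cyclin C genes of the module were tested and not called. Without the same library their values were -0.04 (adjusted p = 0.827, edgeR) and -0.07 (adjusted p = 0.635, edgeR). Of 9 genes for other Mediator subunits, none was called in either direction, with *MED25*, the subunit that MYC2 contacts, at 24.3, 26.2 and 28.4 CPM in jazD and 27.4, 27.1 and 25.6 CPM without CDK8. DESeq2 called 0 of the 9 as well, and at an unadjusted p below 0.05 edgeR found 1, *MED16* (-0.16 ± 0.07).

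Transcripts of *JAZ* genes are a readout of jasmonate signalling, since they are targets of the factors their proteins repress, and they are made from mutated alleles in both groups. Of 8 mutated *JAZ* genes tested, 5 fell and none rose. *JAZ10*, a strong responder to jasmonate, had 8.71, 11.7 and 7.58 CPM in jazD and 3.39, 2.97 and 2.78 CPM in jazD cdk8-1 (-1.63 ± 0.16). *JAZ5* fell by more (-2.35 ± 0.32) and *JAZ9* by less (-0.46 ± 0.05), while *JAZ1*, at 2.29, 2.56 and 2.31 CPM and 2.61, 2.92 and 1.67 CPM, overlapped between the groups. Among the 3 intact genes, *JAZ8*, whose protein escapes the hormone-triggered breakdown, had 2.67, 3.59 and 3.02 CPM in jazD and 0.667, 0.335 and 0.509 CPM without CDK8 (-2.62 ± 0.32). *JAZ11* (0.05 ± 0.10) and *JAZ12* (0.13 ± 0.05) were not called, the latter being higher with TPM values (0.28, adjusted p = 0.000316, limma).

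Over the genome, 6825 of 19059 genes were called (35.8%), of which 3213 were higher (16.9%) and 3612 lower (19.0%) in jazD cdk8-1 than in jazD. Large changes went mostly down: 850 genes were called and at least 2-fold lower (4.46%), against 298 at least 2-fold higher (1.56%). At 4-fold or more the numbers were 266 lower (1.4%) and 62 higher (0.325%). The even split of the small changes depends on scaling. The share of calls that were higher was 47.1% here and 75.8% with the deposited TPM values, which were tested without TMM and shift the median of all genes by 0.136 (log2). With TPM the number at least 2-fold lower was 490, so changes in this account are relative to the bulk of genes. The libraries of both genotypes lay apart at 9124 genes (47.9%), and replicates of a genotype correlated at r from 0.99 to 0.9925 across genes.

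The branch driven by jasmonate and ethylene together fell as a whole, and its defensin genes were among the largest falls of the comparison. All 12 of its tested genes fell, each by at least 2-fold, with a median of -3.23 against 0 for all genes tested. In the genome 4.46% of genes fell that far. Other genes of the list, among them the ERF gene *ERF1* with 15, 34 and 4 counts in jazD and 2, 4 and 1 in jazD cdk8-1, were too low to test. The part of the promoter that a regulator of this branch reads is known, and 4 promoters are shown here because their genes fell and carry that element. ERF factors bind the GCC box, written GCCGCC, and MYC factors bind the G-box, written CACGTG. The 250 bases before the annotated start (RefSeq annotation of TAIR10.1) follow, 5′ to 3′ on the strand of the gene, with both motifs in capitals. They are the defensin genes *PDF1.2a* (chr5:17907639-17907888, minus strand) and *PDF1.2b* (chr2:11088873-11089122, plus strand), the regulator gene *ORA59* (chr1:1882657-1882906, plus strand), and *AACT1* (chr5:24608355-24608604, plus strand), which encodes an agmatine coumaroyltransferase.
PDF1.2a: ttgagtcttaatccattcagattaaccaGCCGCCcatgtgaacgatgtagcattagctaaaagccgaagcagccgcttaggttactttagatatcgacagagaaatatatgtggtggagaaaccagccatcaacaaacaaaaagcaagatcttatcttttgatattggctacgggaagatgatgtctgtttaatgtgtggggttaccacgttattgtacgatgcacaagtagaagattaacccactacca
PDF1.2b: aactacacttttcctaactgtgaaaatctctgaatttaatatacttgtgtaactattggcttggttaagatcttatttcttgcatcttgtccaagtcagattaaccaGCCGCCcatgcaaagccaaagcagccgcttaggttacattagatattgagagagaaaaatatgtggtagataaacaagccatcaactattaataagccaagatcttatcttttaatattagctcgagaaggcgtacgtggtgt
ORA59: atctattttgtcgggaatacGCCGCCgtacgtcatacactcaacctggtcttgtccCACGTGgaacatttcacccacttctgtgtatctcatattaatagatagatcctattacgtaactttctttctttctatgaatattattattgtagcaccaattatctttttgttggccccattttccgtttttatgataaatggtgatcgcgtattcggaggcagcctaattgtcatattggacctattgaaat
AACT1: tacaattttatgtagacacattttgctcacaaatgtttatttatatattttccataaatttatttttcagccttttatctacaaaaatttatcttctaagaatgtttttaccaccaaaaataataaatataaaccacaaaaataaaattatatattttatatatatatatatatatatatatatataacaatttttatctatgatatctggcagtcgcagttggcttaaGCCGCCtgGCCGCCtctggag
The GCC box of *PDF1.2a* began 222 bases before the start, that of *PDF1.2b* 143 bases before it and that of *ORA59* 230 bases before it, with a G-box at 194 bases. *AACT1* had a GCC box at 21 bases and another at 13 bases. Around the starts of all tested genes, in windows from 250 bases before to 50 bases after the start and on both strands, a GCC box occurred in 2.64% (494 of 18738). The share was 4.74% among genes called and at least 2-fold lower (39 of 822), 6.3% among those at least 4-fold lower (16 of 254) and 1.04% among those at least 2-fold higher (3 of 288). The G-box occurred in 8.85% of all windows, in 9.12% of those of genes at least 2-fold lower and in 6.25% of those of genes at least 2-fold higher. In the branch list 4 of 12 windows held a GCC box, namely those of *ORA59*, *PDF1.2a*, *PDF1.2b* and *OSM34*, and 1 of 12 held a G-box. In the list of the wound and anti-insect branch, 1 of 17 windows held a G-box (5.88%, against 8.85% of all windows) and 0 held a GCC box. A match is only a string of letters and was not tested as a binding site.

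*ORA59*, the ERF gene that drives the branch, had 47.9, 56.8 and 53.5 CPM in the jazD libraries and 13.9, 13.8 and 14.5 CPM in those of jazD cdk8-1 (-1.90 ± 0.08; adjusted p = 1.30e-13, edgeR). Its level stayed well above the 1.5, 1.05 and 0.8 CPM of Col-0. The defensin genes fell much further than their regulator. *PDF1.2a*, with the first promoter shown, had 2092, 2238 and 2208 CPM in jazD and 50.6, 62.3 and 41.6 CPM without CDK8, which is 42.3-fold lower (-5.40 ± 0.29; adjusted p = 3.48e-12, edgeR). *PDF1.3* had 2686, 2994 and 2720 CPM and 34.3, 13.4 and 17.7 CPM, a 131-fold difference (-7.03 ± 0.36). *PDF1.2b* (-6.81 ± 0.21) and *PDF1.2c* (-6.83 ± 0.24) moved likewise, and since the defensin copies are nearly identical, the division of reads among them is uncertain. At each of these 4 genes every jazD cdk8-1 library lay far below every jazD library. All 4 are among the 10 largest falls, which were picked among genes without overlap of libraries.
*PR4*, a chitin-binding defence protein gene, had 1755, 1823 and 1660 CPM in jazD and 157, 172 and 166 CPM in jazD cdk8-1 (-3.41 ± 0.13). *CHIB*, a basic chitinase gene, had 50.9, 64.6 and 47.7 CPM and 3.73, 4.59 and 4.17 CPM (-3.70 ± 0.12). In Col-0 *PR4* had 42.5, 38.7 and 28.8 CPM and *CHIB* had 3.79, 4.06 and 4.1 CPM, so the second came down near the wild-type level and the first did not. The thionin gene *THI2.1* fell by 3.05 on the log2 scale, and the ERF genes *ERF5* (-1.98 ± 0.24) and *ERF104* (-1.60 ± 0.16) fell by less. Among the jazD libraries, replicate 2 was the highest at 10 of the 12 genes, against 34.8% of all genes tested. Without it 11 of the 12 were called lower, and the osmotin gene *OSM34* went from -1.46 ± 0.49 to -0.53 (adjusted p = 0.444, edgeR). The call of *OSM34* was also lost without any single jazD cdk8-1 library and with TPM values, so it rests on little.

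**Figure D1:**
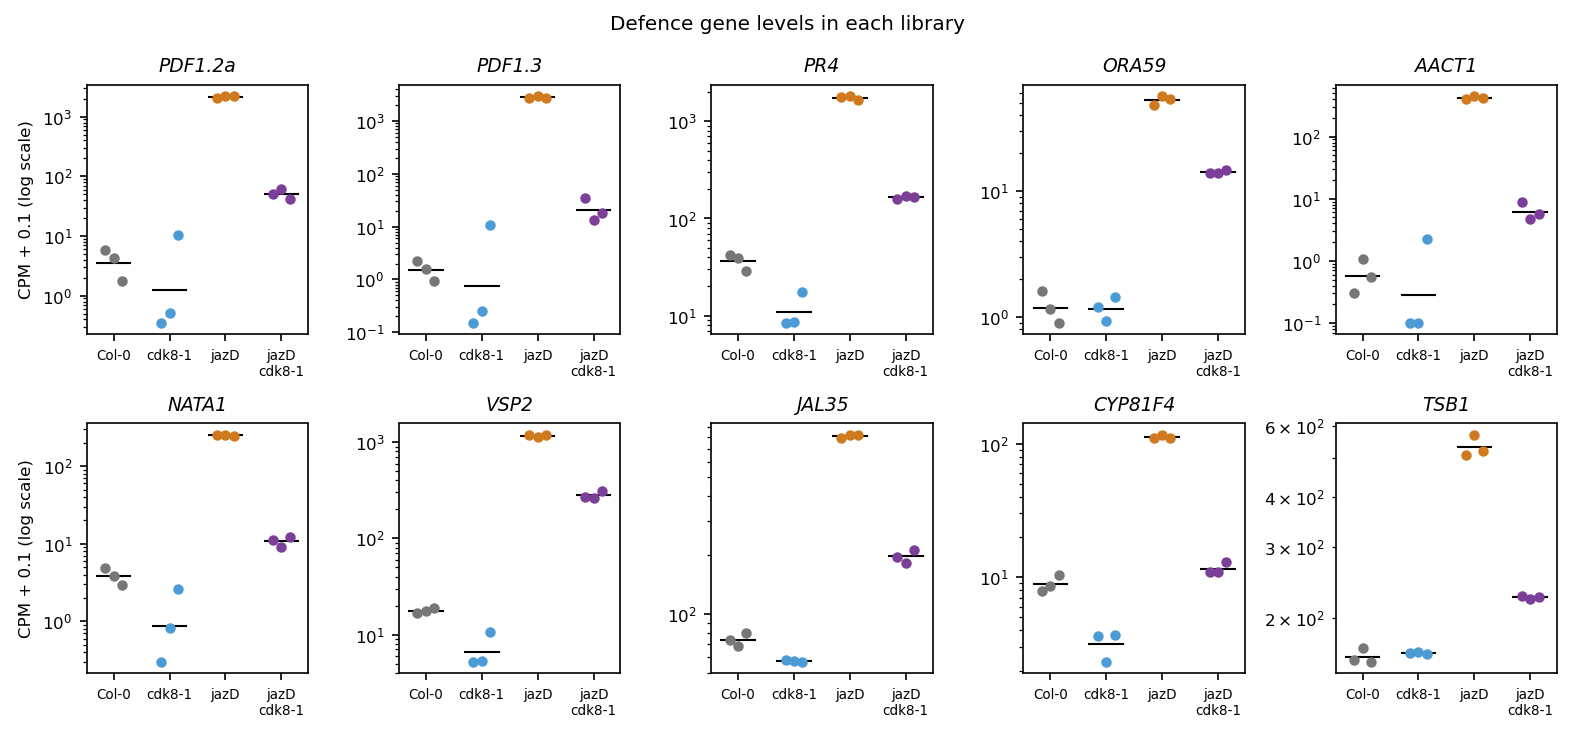
Levels of 10 defence genes in each of the 12 libraries, as CPM + 0.1 on a log axis (points, 3 libraries per genotype; lines, geometric means). In every panel the 3 jazD cdk8-1 points lie below the 3 jazD points; *PDF1.2a* goes from 2092 to 2238 CPM down to 41.6 to 62.3 CPM, and *ORA59* stays above its Col-0 points.

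Falls as large as those of the defensin genes were found at genes outside that family. By the rule for the 10 largest falls, *DIN11* led, ahead of *PDF1.3*. It is a dark-inducible gene annotated as a 2-oxoglutarate-dependent oxygenase, with 115, 151 and 117 CPM in jazD and 1.5, 0.526 and 0.787 CPM without CDK8 (139-fold, -7.12 ± 0.19). AT4G16260, annotated as a glycosyl hydrolase, had 575, 633 and 560.4 CPM and 11.0, 6.46 and 7.64 CPM (-6.16 ± 0.16). AT2G43590, a chitinase family gene, had 662, 752 and 626 CPM and 13.8, 7.13 and 10.4 CPM (-6.04 ± 0.17). The peroxidase gene *Prx37* also fell (-4.70 ± 0.28). The rule takes only genes at which the groups lie apart, so their separation at these 4 genes adds nothing.
*AACT1* makes amides of hydroxycinnamic acids and agmatine, small antifungal compounds, and its promoter with a pair of GCC boxes is shown above. It had 406, 451 and 409.8 CPM in jazD and 8.73, 4.64 and 5.46 CPM in jazD cdk8-1, 68.3-fold lower (-6.09 ± 0.20; adjusted p = 1.36e-15, edgeR). The MATE transporter gene AT3G23550 had 236, 256 and 240.0 CPM and 7.68, 8.99 and 8.62 CPM (-4.85 ± 0.12). Of the arginine decarboxylase genes, which supply agmatine, *ADC2* fell by 0.51 and *ADC1* was not called (-0.06 ± 0.05).

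The wound and anti-insect branch also fell, by less. Of 17 genes tested, 16 were lower and none higher, 13 of them by at least 2-fold, with a median of -2.04. *VSP2*, a vegetative storage protein gene and the usual marker of the branch, had 1191, 1137 and 1179 CPM in jazD and 267, 262 and 312 CPM in jazD cdk8-1 (-2.06 ± 0.09). *VSP1* had 1192, 1188 and 1178 CPM and 270.2, 256 and 364 CPM (-2.0 ± 0.14). Both stayed far above Col-0, where *VSP2* had 16.8, 17.3 and 18.9 CPM. The largest fall of the branch was at *NATA1*, whose enzyme acetylates ornithine and putrescine, with 252, 254 and 248 CPM and 11.0, 9.14 and 12.1 CPM (23.4-fold lower, -4.55 ± 0.14). *ARGAH2*, an arginase gene, had 609, 613 and 605 CPM and 205, 197 and 206 CPM (-1.59 ± 0.04). *JAL35*, a jacalin-related lectin gene, had 789, 819.9 and 823 CPM and 196, 183 and 212 CPM (-2.04 ± 0.06). These differences were many times their standard errors.
Genes for volatile terpenes fell together. *TPS03* fell by 2.47, *TPS10* by 2.72 and *TPS04*, the geranyllinalool synthase gene, by 2.62 on the log2 scale. *CYP82G1*, which finishes the homoterpene made from that product, had 47 counts in all jazD libraries and 6 in all jazD cdk8-1 libraries, a ratio of 0.117 scaled to library size (95% interval 0.041 to 0.275, counting error only). *CLH1*, a chlorophyllase gene (-1.25 ± 0.05), and *MBP1*, a myrosinase-binding protein gene (-0.67 ± 0.07), fell less, and *KTI1*, a trypsin inhibitor gene, was the only gene of the 17 without a call (-0.75 ± 0.56).

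Genes of jasmonate synthesis and turnover were lower by smaller folds. Of 17 synthesis genes tested, 11 fell and 1 rose, with a median of -0.31. *LOX2*, the chloroplast lipoxygenase gene of the first step in wounded leaves, had 4694, 4854 and 4928 CPM in jazD and 2883, 2863 and 2936 CPM in jazD cdk8-1 (-0.74 ± 0.05). *AOS*, for allene oxide synthase, had 1020, 997 and 1028 CPM and 718, 744 and 737 CPM (-0.47 ± 0.04). Among the cyclase genes *AOC2* fell by 0.66, with close copies that make its read count uncertain, and *LOX4* fell the most (-1.97 ± 0.09). *JAR1*, which joins jasmonate to isoleucine, was higher (0.26 ± 0.06). All 5 tested genes of catabolism fell, with a median of -0.9; *CYP94C1*, an oxidase of jasmonoyl-isoleucine, went from 6.48, 6.83 and 6.99 CPM to 1.83, 1.63 and 1.81 CPM (-1.94 ± 0.17).
The signalling genes upstream stood in contrast. Of 9 tested, 2 rose and 2 fell, near the background shares of 16.9% and 19.0%, with a median of 0.07 (with TPM values, 5 rose and none fell). *MYC2*, the main MYC factor gene, had 129.8, 131 and 130.5 CPM in jazD and 99.1, 104 and 114 CPM in jazD cdk8-1 (-0.30 ± 0.06), and with TPM values this fall was -0.16 and was not called (adjusted p = 0.142, limma). *MYC4* was higher (0.47 ± 0.07). The receptor gene *COI1* (0.15 ± 0.06) and *MYC3* (0.10 ± 0.05) were not called; with TPM values both were higher (0.28 and 0.24), as *COI1* was without jazD replicate 2 (0.18, adjusted p = 0.0476, edgeR).

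**Figure D2:**
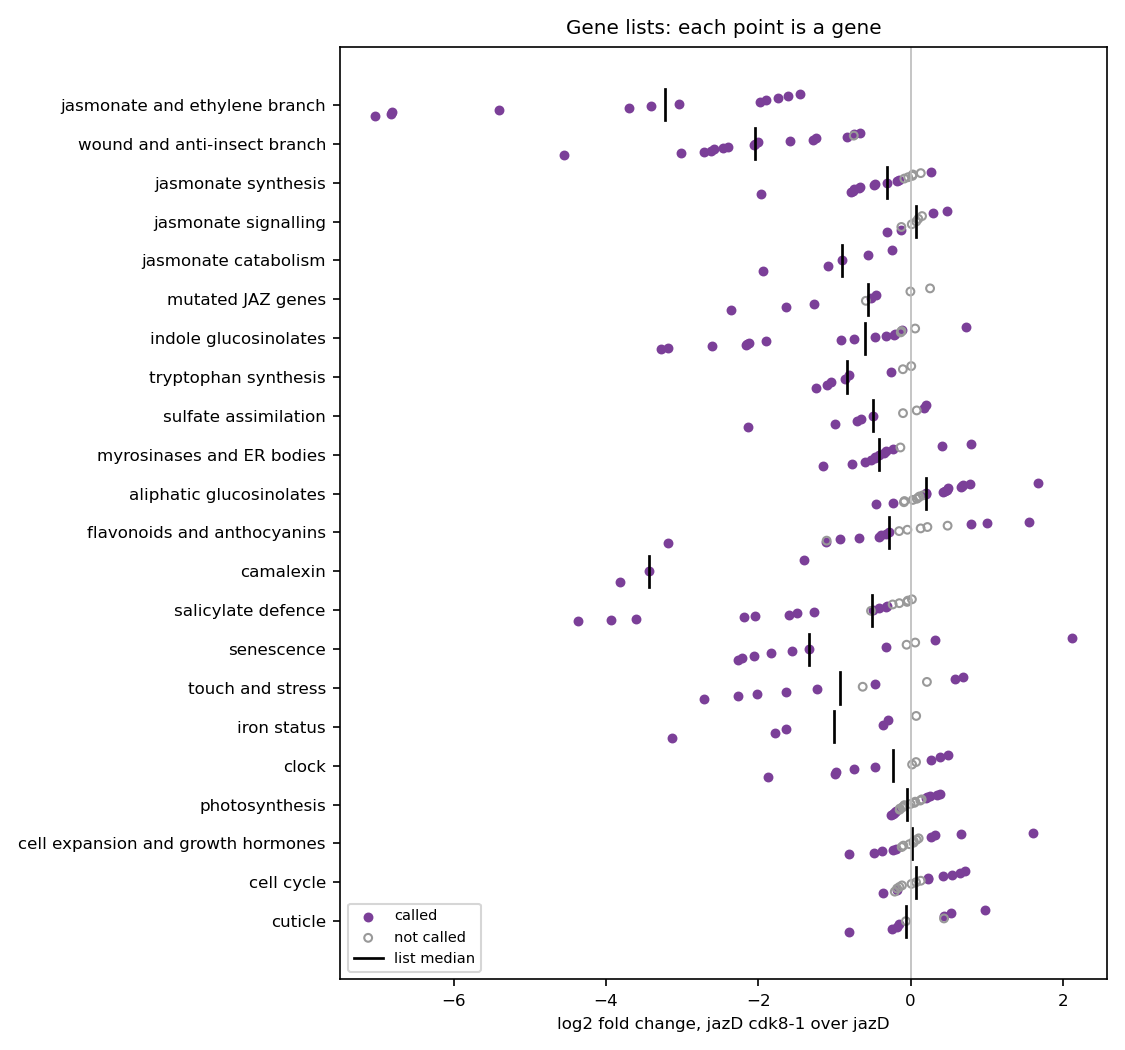
Log2 fold change of jazD cdk8-1 over jazD for each tested gene (points) of 22 lists, with filled points for called genes, open points for others and a bar at each list's median. The jasmonate and ethylene list lies wholly below -1 with its median at -3.23, while the aliphatic glucosinolate list has its median at 0.2.

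Glucosinolates are the mustard oil precursors of this plant, made from tryptophan (indole type) or methionine (aliphatic type), and the genes of the types went opposite ways. Of 18 indole genes tested, 14 fell and 1 rose, with a median of -0.6. Of 20 aliphatic genes, 11 rose and 2 fell, with a median of 0.2, against backgrounds of 16.9% higher and 19.0% lower. The steps that decorate the indole ring fell the furthest. *CYP81F4*, a hydroxylase gene of the ring, had 109, 116 and 111 CPM in jazD and 10.9, 10.9 and 12.9 CPM in jazD cdk8-1, close to the 7.73, 8.53 and 10.2 CPM of Col-0 (-3.27 ± 0.09). *CYP81F2* went from 17.9, 25.8 and 15.7 CPM to 2.89, 1.72 and 1.99 CPM (-3.19 ± 0.19). The methyltransferase gene *IGMT5* (-2.61 ± 0.09) and the regulator gene *MYB51* (-2.17 ± 0.12) fell, whereas *CYP81F1* rose (0.73 ± 0.09).
In the core of the indole pathway *CYP79B3*, which turns tryptophan into its oxime, had 181, 184 and 182 CPM and 88.8, 101 and 101 CPM (-0.91 ± 0.05). Its twin *CYP79B2* was not called (-0.12 ± 0.06), nor was the regulator gene *MYB34* (-0.13 ± 0.06). Genes listed for tryptophan synthesis fell too: 6 of 8 tested were lower and none higher, with a median of -0.84. The list does not cover every gene of the pathway. *TSB1*, for the last enzyme, had 509, 570.4 and 520.0 CPM and 227, 222 and 226 CPM (-1.25 ± 0.05), and *TSA1* (-1.05 ± 0.06) and *ASA1*, for the committed step (-1.10 ± 0.07), were lower too. Sulfate assimilation, which supplies sulfur to glucosinolates, had 5 of 9 genes lower and 2 higher; *APR3*, an APS reductase gene, had 67.2, 75.0 and 65.9 CPM and 35.3, 32.4 and 37.3 CPM (-0.99 ± 0.07).
On the aliphatic side the largest rise was that of *MAM3*, which lengthens the methionine chain, with 11.7, 11.8 and 14.2 CPM in jazD and 33.7, 43.3 and 42.0 CPM in jazD cdk8-1 (1.67 ± 0.10). *CYP79F1*, the entry enzyme gene, had 234, 196 and 216 CPM and 339.7, 355 and 338 CPM (0.68 ± 0.05), beside 336, 362 and 342 CPM in Col-0. *SOT18*, a sulfotransferase gene of the final core step, rose by 0.79 ± 0.05, and *MYB28*, the regulator gene of the pathway, by 0.49 ± 0.05. The 2 that fell were *GSTF11* (-0.46 ± 0.11) and *CYP83A1* (-0.23 ± 0.05), the latter not called with TPM values.
Enzymes that release mustard oils were divided. *TGG1*, a main leaf myrosinase gene, had 7620, 7056 and 7310 CPM in jazD and 12470, 13230 and 12350 CPM in jazD cdk8-1 (0.79 ± 0.05), while *TGG2* was not called (-0.13 ± 0.06) unless jazD replicate 2 was left out (-0.19, adjusted p = 0.0171, edgeR). *BGLU18*, the beta-glucosidase gene of inducible ER bodies, had 7415, 7550 and 7578 CPM and 4855, 4789 and 5303 CPM (-0.59 ± 0.05). *NAI2*, needed for ER body formation, fell by 1.15. In all, 10 of 13 genes of mustard oil release (myrosinases, specifier proteins, ER bodies) fell and 2 rose, with a median of -0.42.

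Flavonoid and anthocyanin genes were mixed. Of 17 genes tested, 8 fell and 3 rose, against 19.0% lower and 16.9% higher in the genome, with a median of -0.28. *LDOX*, a late anthocyanin enzyme gene, had 51.1, 49.6 and 49.6 CPM in jazD and 28.1, 23.8 and 27.4 CPM in jazD cdk8-1 (-0.92 ± 0.07), and *TT8*, the bHLH regulator gene of the late steps, fell by 1.11. *CHS*, the entry enzyme gene, had 297, 279 and 291 CPM and 228, 219 and 213 CPM (-0.39 ± 0.05). *FLS1*, which diverts the pathway to flavonols, had 20.0, 17.8 and 17.2 CPM and 37.9, 36.1 and 36.1 CPM (1.00 ± 0.07), and *MYB111*, a flavonol regulator gene, rose by 1.56 ± 0.19. The anthocyanin regulator gene *MYB75* was higher too (0.79 ± 0.12).

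Genes of salicylate defence, which usually opposes jasmonate, were mostly lower as well: 12 of 18 fell and none rose, against 19.0% lower and 16.9% higher in the genome, with a median of -0.51. *PR1*, its marker, had 47.5, 106 and 45.5 CPM in jazD and 2.06, 1.44 and 9.17 CPM in jazD cdk8-1 (-3.94 ± 0.43), with wide spread inside both groups but no overlap. *PR5* had 111, 168 and 112 CPM and 30.0, 19.5 and 36.6 CPM (-2.18 ± 0.19). *EDS5*, the salicylate exporter gene of the chloroplast, fell by 1.5, and *ALD1*, of pipecolate synthesis, by 3.60. The receptor gene *NPR1* (-0.04 ± 0.07) and the hub genes *EDS1* (-0.05 ± 0.08) and *PAD4* (-0.15 ± 0.09) were not called. Camalexin, the indole phytoalexin, had all 3 tested genes lower: *PAD3*, of its last steps, had 15.6, 37.2 and 15.9 CPM and 1.33, 0.67 and 2.83 CPM (-3.82 ± 0.34), and *CYP71A13* fell by 3.43.
One library stood out beside these and other genes. Within jazD, replicate 2 was the highest library at 18 of 18 salicylate genes, 3 of 3 camalexin genes and 9 of 11 senescence genes, against 34.8% of all genes tested. Without it 9 of the 18 salicylate genes were called lower and 1 higher, and all 3 camalexin genes stayed called lower. The fold of *PR1* was then -3.43, that of *PR5* -1.97, that of *PAD3* -3.28 and that of *CYP71A13* -2.76, and each was still called.
The same library was also the highest of jazD at 8 of 9 jasmonate signalling, 7 of 9 sulfate, 6 of 8 mutated *JAZ*, 3 of 3 amide, 12 of 18 indole glucosinolate and 5 of 8 tryptophan genes, and at 0 of 20 aliphatic glucosinolate, 0 of 20 photosynthesis and 0 of 9 cuticle genes. Its deviation thus ran with the falls and rises given for several lists. Without it 5 mutated *JAZ*, 14 indole, 6 tryptophan, 5 sulfate and 2 amide genes were called lower, the same numbers as with it, and 10 of 20 aliphatic genes were called higher and 3 lower. Of the photosynthesis genes 8 were then called lower instead of 5.
Stress and senescence genes were mostly lower too. Of 11 senescence genes 7 fell and 2 rose, with a median of -1.33, and of 10 touch and stress genes 6 fell and 2 rose, with a median of -0.93. The genome shares are again 19.0% lower and 16.9% higher, also for the iron list below. The summed level of the senescence markers ran from 369 to 416 CPM in jazD and from 335 to 354 CPM in jazD cdk8-1. *SEN1*, a dark-inducible gene, had 31.2, 34.2 and 32.6 CPM in jazD and 10.6, 7.75 and 9.45 CPM in jazD cdk8-1 (-1.83 ± 0.12). *TCH3*, a touch-induced calmodulin-like gene, had 152, 210.2 and 137 CPM and 40.9, 37.4 and 45.0 CPM (-2.02 ± 0.12). *WRKY33* (-1.63 ± 0.12) and *ZAT10* (-2.26 ± 0.18), early stress regulator genes, also fell. Without jazD replicate 2, 4 of the 10 touch and stress genes were called lower and 1 higher. In the iron list 5 of 6 genes fell and none rose, and the ferritin gene *FER1* had 203, 209.8 and 189.6 CPM and 56.2, 64.7 and 54.3 CPM (-1.78 ± 0.10).

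Growth and photosynthesis genes changed by small folds in both directions. Of 20 photosynthesis genes 5 rose and 5 fell, none by 2-fold, with a median of -0.04, and the genome shares to read this and the next lists against are 16.9% higher and 19.0% lower; those that rose belong to the Calvin cycle and those that fell to light harvesting. With TPM values, whose scale shifts all genes upwards, 10 rose and 1 fell. *RCA*, the Rubisco activase gene, had 5489, 5068 and 5403 CPM in jazD and 6982, 6808 and 6496 CPM in jazD cdk8-1 (0.35 ± 0.05), and *GAPB* rose by 0.38 ± 0.04. *CAB1*, an antenna protein gene, had 26270, 24500 and 25990 CPM and 22620, 21720 and 20810 CPM (-0.24 ± 0.06), and with TPM values this was -0.08 (adjusted p = 0.162, limma). Of 15 cell cycle genes 6 rose and 2 fell, with the mitotic kinase gene *CDKB2;2* at 0.71 ± 0.10 and *CYCB1;1* at 0.55 ± 0.17; the call of the latter was lost without jazD replicate 1 (0.46, adjusted p = 0.0656, edgeR) or jazD cdk8-1 replicate 3 (0.46, adjusted p = 0.0726, edgeR). Of 16 growth hormone and cell expansion genes 4 rose and 5 fell (6 and 3 with TPM values). There *PRE1*, a helix-loop-helix growth promoter gene, had 5.99, 4.08 and 5.51 CPM and 14.5, 18.2 and 14.5 CPM (1.61 ± 0.13), against 17.4, 14.6 and 17.8 CPM in Col-0.
Cuticle genes had 3 of 9 higher and 4 lower (3 and 1 with TPM values). *CER3*, of wax alkane synthesis, had 50.4, 50.3 and 49.2 CPM and 96.6, 102 and 96.1 CPM (0.98 ± 0.05), and *GPAT4*, of cutin synthesis, fell by 0.80. In the clock list 3 of 10 rose and 5 fell: the morning gene *PRR9* rose by 0.49 ± 0.08, while the later genes *PRR5* (-0.98 ± 0.12), *TOC1* (-0.75 ± 0.06) and *ELF4* (-1.88 ± 0.16) fell. The hour of harvest is not given in the sources used here. *FLC*, the floral repressor gene, had 1.58, 2.75 and 1.95 CPM in jazD and 3.34, 5.02 and 4.68 CPM in jazD cdk8-1 (1.05 ± 0.21).

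**Figure D3:**
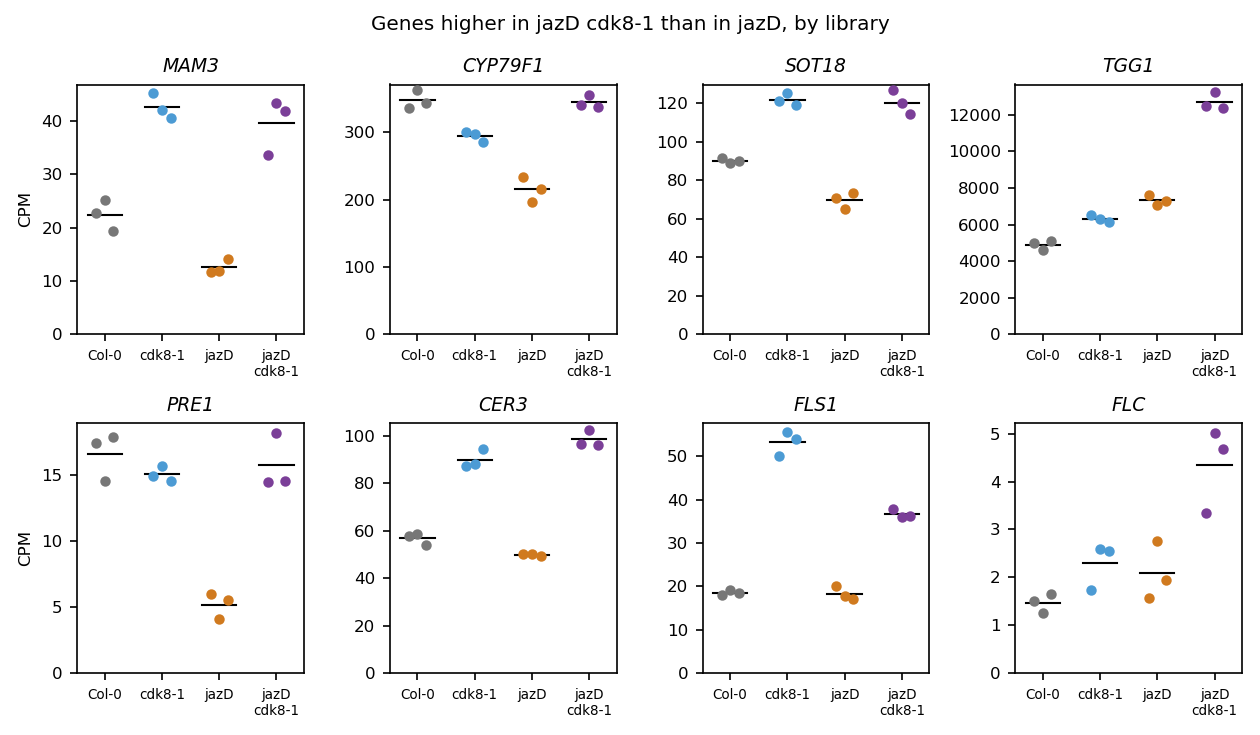
Levels of 8 genes that were higher in jazD cdk8-1 than in jazD, as CPM in each of the 12 libraries (points; lines are means; axes start at 0). *CYP79F1* returns to the range of Col-0 and *PRE1* comes close to it, while *TGG1* and *CER3* exceed it.

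The largest rises outside the chromosome 5 stretch described next were smaller than the largest falls, and their annotations were mixed. AT5G35935, annotated as a transposable element gene, had 0.436, 0.393 and 0.711 CPM in jazD and 6.73, 7.94 and 6.48 CPM in jazD cdk8-1 (3.79 ± 0.21), with 5.4, 7.08 and 5.15 CPM in Col-0. AT3G55230, annotated as a dirigent-like protein, had 0.871, 0.393 and 0.415 CPM and 5.95, 7.51 and 6.34 CPM (3.55 ± 0.22). These jazD levels are under 1 CPM, so the folds rest on few counts. AT1G11070 had 2.56, 3.14 and 3.26 CPM in jazD and 28.9, 29.8 and 31.1 CPM in jazD cdk8-1 (3.32 ± 0.12). AT1G62290, annotated as a saposin-like aspartyl protease, had 4.79, 4.42 and 3.97 CPM and 26.0, 28.1 and 26.5 CPM (2.61 ± 0.09). *MES18*, a methyl esterase gene, had 3.38, 2.51 and 2.96 CPM and 16.6, 16.8 and 17.4 CPM (2.53 ± 0.11). AT5G57890, annotated as a glutamine amidotransferase, rose to 11.0, 12.0 and 11.5 CPM (2.26 ± 0.12), which is near the range of Col-0 (11.3, 12.1 and 12.0 CPM). The rest of the 10 were the cysteine proteinase gene AT2G27420 (2.51 ± 0.28), the alpha-amylase-like gene *AMY1* (2.01 ± 0.31) and the glucosyltransferase gene *UGT85A3* (2.00 ± 0.22). The highest value by the rule, 5.54 ± 1.33 at the short open reading frame *CPuORF21*, is uncertain, because its level also differed within genotypes: Col-0 libraries had 0.986, 36.8 and 1.0 CPM and cdk8-1 libraries 32.5, 1.19 and 34.6 CPM.

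On chromosome 5 the rises clustered. The bounds of the stretch were taken from an earlier look at very large changes in these data, so counts inside and outside it describe what chose it and test nothing. In the stretch from AT5G44490 to AT5G56910, which holds 926 tested genes, 27 were called and at least 4-fold higher (2.92%), against 35 of 18133 elsewhere (0.193%). Called genes lower by that much were 1.94% inside and 1.37% outside. In blocks of 100 neighbouring tested genes, blocks touching the stretch held up to 7 such rises, and the other 183 blocks held at most 2. A block with 2, from AT5G57490 to AT5G58670, begins just past the end of the stretch. It holds AT5G57890 and *MES18*, counted above as rises outside the stretch, so its bound may not be the end of the cluster. The 27 genes, chosen by their rise, had medians of 4.26 in jazD cdk8-1 against jazD and 0.01 in cdk8-1 against Col-0. Their median was -4.89 in jazD against Col-0 and -0.07 in jazD cdk8-1 against Col-0, and these values share libraries with the first. In jazD cdk8-1, 23 of the 27 lay within 2-fold of Col-0.
AT5G49440 had 6 counts over the 3 jazD libraries and 5833 over those of jazD cdk8-1, a ratio of 894 (95% interval 410 to 2440, counting error only). AT5G45490 had 5 and 3411 counts, a ratio of 627 (269 to 1930). AT5G50565 had 0 counts in jazD and 484 in jazD cdk8-1, at least 148-fold higher with 3 counts taken as the floor over the group. It has a near copy in AT5G50665, so their counts are uncertain. AT5G49640 had 1 and 442 counts, a ratio of 406 (72.6 to 16100). The largest falls inside the stretch, at AT5G45720 (-3.30 ± 0.18), *PTR3* (-2.41 ± 0.30), AT5G48540 (-2.02 ± 0.12), *ERF5* and AT5G55450 (-1.59 ± 0.14), were smaller than its largest rises. The stretch does not contain *CDK8*, and the loci of *PDF1.2a* and *PDF1.2c* precede it closely. Of the genes named above, *TSB1*, *MYB111*, *ERF5* and *MYC3* lie inside it, as do both cyclin C genes. Outside the stretch 2938 of 18133 genes were called higher (16.2%), against 275 of 926 inside it (29.7%). The cause of the cluster was not tested.

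**Figure D4:**
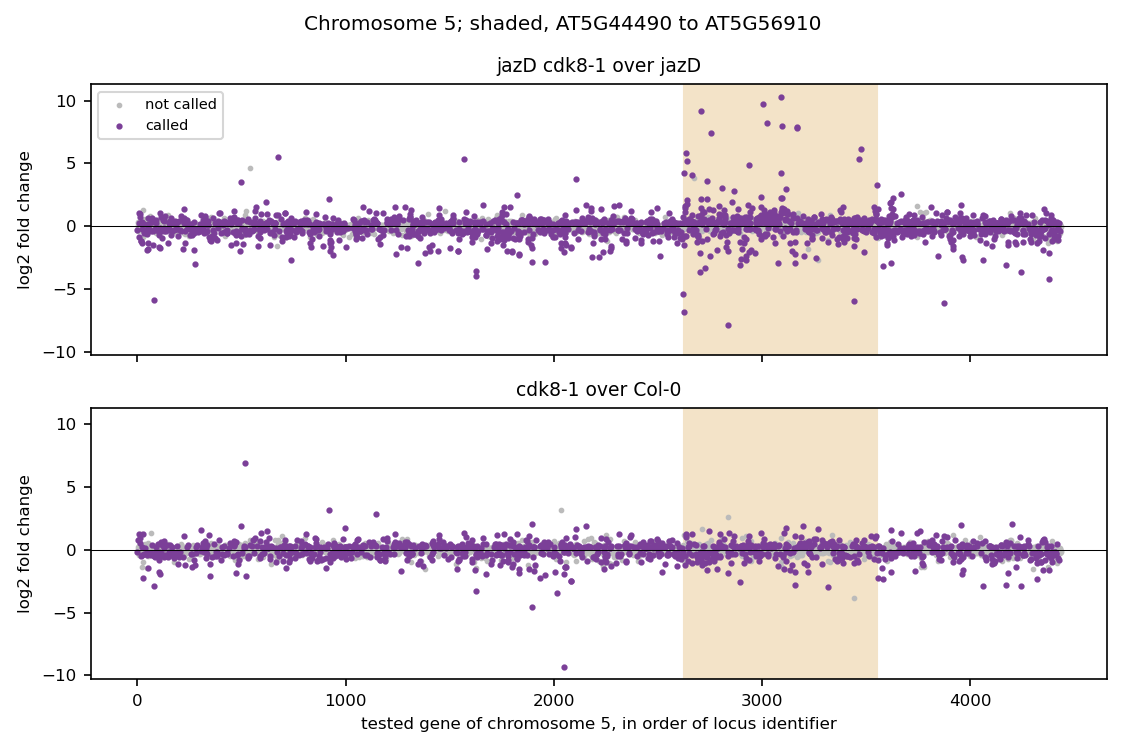
Log2 fold changes of tested genes along chromosome 5 in order of locus identifier, for jazD cdk8-1 over jazD (top) and cdk8-1 over Col-0 (bottom), with called genes in purple and the stretch AT5G44490 to AT5G56910 shaded. The 27 rises of at least 4-fold inside the stretch appear in the top panel, and with intact *JAZ* genes the median of the same genes was 0.01.

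The same mutation changed fewer genes where the *JAZ* genes were intact. In cdk8-1 against Col-0, 4853 genes were called (25.5%), 2229 higher (11.7%) and 2624 lower (13.8%), and 189 were at least 2-fold higher (0.992%) and 471 at least 2-fold lower (2.47%), of which 102 were at least 4-fold lower (0.535%). Of the calls, 2944 were shared, which is 43.1% of those in jazD and 60.7% of those with intact *JAZ* genes, and 2623 of them went the same way (89.1%). Across genes the folds of the 2 backgrounds, which have no library in common, correlated at r = 0.52 over 19059 genes, which are not independent of each other. The difference of the effects, an interaction in the same model, was called at 3154 genes (16.5%), 1555 positive (8.16%) and 1599 negative (8.39%). Of the 850 genes at least 2-fold lower in jazD cdk8-1, 476 also fell with intact *JAZ* genes, and 324 had a called negative and 8 a called positive interaction. Their median was -1.58 in jazD and -0.84 with intact *JAZ* genes, though the choice of genes by their fall in jazD favours that order.
Negative interactions were above the background in many lists. They were called at 9 of 12 genes of the jasmonate and ethylene branch, 10 of 17 of the wound branch, 11 of 18 indole glucosinolate genes and 6 of 8 tryptophan genes, against 8.39% of all genes, with 2 positive calls among the indole genes and none in the other 3 lists. They were also called at 7 of 9 sulfate genes, 7 of 13 myrosinase and ER body genes, 9 of 17 jasmonate synthesis genes, 5 of 8 mutated *JAZ* genes, 3 of 5 catabolism genes and all 3 amide genes, with 3 positive calls in the second of these lists, 1 each in the third to the fifth and none in the others. Some of these calls were lost without cdk8-1 replicate 3. Among them were those of *PDF1.2a*, *PDF1.2b*, *PDF1.2c* and *PDF1.3* in the jasmonate and ethylene branch and *NATA1* and *VSP2* in the wound branch. Those of *LOX4* among the synthesis genes and *AACT1* among the amide genes were lost too. The list counts without that library are not given here. *ARGAH2* was at 98.1, 101 and 94.0 CPM in Col-0 and 99.0, 99.1 and 100.4 CPM in cdk8-1 (0.03 ± 0.04), and its interaction was -1.61 ± 0.06. *TSB1* was at 157, 168 and 155 CPM and 163, 164 and 163 CPM there (0.03 ± 0.05), with an interaction of -1.27 ± 0.07. *CYP81F4* fell in both backgrounds, by 1.49 with intact *JAZ* genes, and its interaction was -1.78 ± 0.18. The salicylate and camalexin lists had a called interaction at 2 of 18 and 0 of 3 genes; *PAD3* fell by 2.69 with intact *JAZ* genes (interaction -1.13 ± 0.79, adjusted p = 0.373, edgeR).
The aliphatic glucosinolate genes had 15 positive interactions of 20 and no negative one, against 8.16% of all genes. With intact *JAZ* genes 12 of the 20 fell and 6 rose. *CYP79F1* was at 336, 362 and 342 CPM in Col-0 and 299.7, 297 and 285 CPM in cdk8-1 (-0.24 ± 0.05), and its interaction was 0.92 ± 0.07. *TGG2* fell by 1.51 without CDK8 where *JAZ* genes were intact and was not called in jazD (interaction 1.38 ± 0.08). Flavonoid genes went the other way: 11 of 17 rose with intact *JAZ* genes and none fell, and 11 had a negative interaction. *CHS* had 146, 134 and 126 CPM in Col-0 and 246, 249 and 232 CPM in cdk8-1 (0.84 ± 0.05), with an interaction of -1.23 ± 0.07, and *APR3* behaved alike, with 0.98 ± 0.07 and an interaction of -1.97 ± 0.10.
The largest positive interactions outside the stretch came from falls with intact *JAZ* genes, as at AT3G57880, or mostly from a rise in jazD, as at AT5G57890. AT3G57880, annotated as a lipid-binding protein, had 19.2, 19.8 and 17.7 CPM in Col-0 and 4.24, 3.05 and 4.13 CPM in cdk8-1, while in jazD it was slightly higher without CDK8 (0.36 ± 0.08), and its interaction was 2.67 ± 0.13. *MAPR2*, annotated as a progesterone-binding protein, had 7.46, 6.73 and 24.3 CPM in jazD and 45.5, 19.6 and 49.6 CPM in jazD cdk8-1, which overlap (interaction 2.71 ± 0.52). *GolS2*, for galactinol synthase (2.21 ± 0.40), and AT5G57890 (2.41 ± 0.15) followed. AT4G01390, a TRAF-like gene, fell in both backgrounds, with -3.49 ± 0.17 in jazD and -5.71 ± 0.25 with intact *JAZ* genes (interaction 2.22 ± 0.42).
The negative interactions of the defensin genes and *AACT1* depend on 1 cdk8-1 library. *PDF1.3* had 2.18, 1.5 and 0.85 CPM in Col-0 and 0.0499, 0.155 and 10.7 CPM in cdk8-1, so that replicate 3 was the high one, and its interaction of -8.34 ± 1.04 became -3.22 without that library (adjusted p = 0.493, edgeR). The interaction of *PDF1.2a* went from -5.37 ± 0.77 to -1.90 (adjusted p = 0.254, edgeR) and that of *AACT1* from -6.52 ± 1.05 to 0.32. Those of *PDF1.2b* (-3.16), *PDF1.2c* (-4.72), *NATA1* (-1.52) and AT3G23550 (-0.66) also shrank and were not called without it. The interactions of *DIN11* (-4.91), AT4G16260 (-4.03) and AT2G43590 (-4.44) remained called without it. Those of *JAZ8* (-2.63) and *LOX4* (-0.56) hardly moved, and lost their calls both without it and without cdk8-1 replicate 2. Replicate 3 was the highest cdk8-1 library at 9 of 12 genes of the jasmonate and ethylene branch and at 15 of 17 of the wound branch, against 32.7% of all genes tested. Comparisons of jazD cdk8-1 with jazD use that library only through the filter on low counts, the scaling and the shared estimate of spread.

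**Figure D5:**
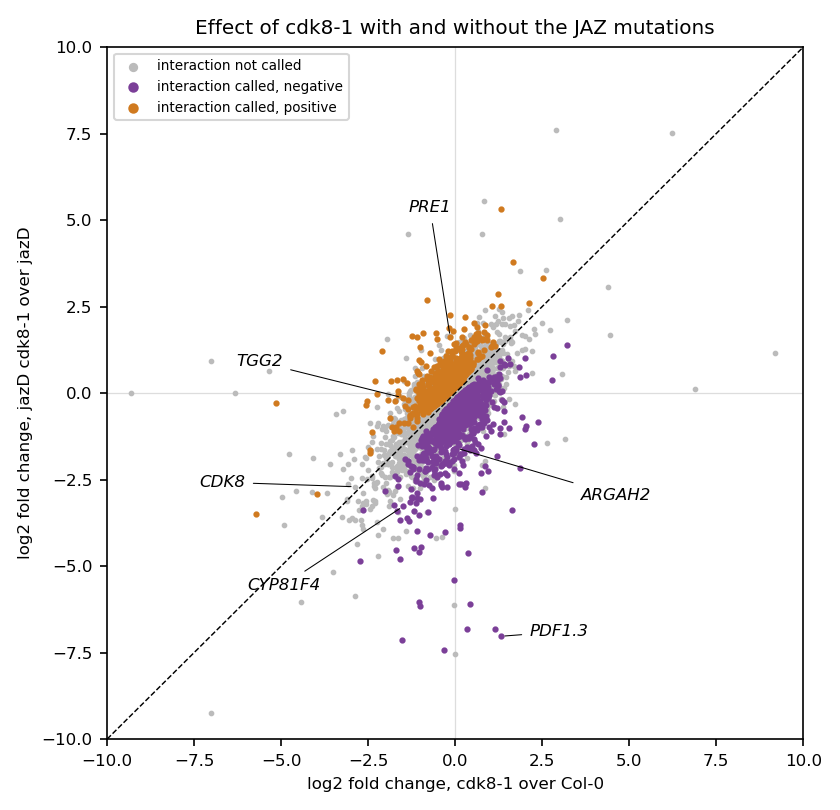
Each tested gene outside the chromosome 5 stretch by its log2 fold change in cdk8-1 over Col-0 (horizontal axis) and in jazD cdk8-1 over jazD (vertical axis), with equal folds on the dashed line and colours for called interactions. *CDK8* lies near the line, *PDF1.3* and *ARGAH2* lie below it and *PRE1* and *TGG2* above it.

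Families given by their annotation, chosen after values were seen, showed how broad the changes were. Of 47 *WRKY* factor genes tested, 20 fell and 4 rose, and of 58 ERF and related factor genes, 29 fell and 3 rose, against 19.0% lower and 16.9% higher in the genome. Of 14 chitinase genes 9 fell and 1 rose, and of 32 class III peroxidase genes 11 fell and 2 rose. Glutathione S-transferase genes had 15 of 32 lower and 6 higher, and lectin genes 36 of 94 lower and 11 higher. Genes for NLR immune receptors gave 20 of 110 lower and 17 higher, near the background (8 and 23 with TPM values), with 19 of the 110 inside the chromosome 5 stretch. Cytosolic ribosomal protein genes had 75 of 270 lower and 12 higher, none of the lower ones by as much as 2-fold, against 4 lower and 10 higher with intact *JAZ* genes. This direction follows the scaling, since with TPM values 10 of the 270 were lower and 77 higher. Their interaction was called negative at 43 and positive at 4 of the 270.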

How the data were processed

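The authors' deposited expected counts, 1 value per gene and library, came from RSEM 1.2.25, and the build named is TAIR10 (both per the submitters' processing notes); 96.58% were whole numbers. TPM values per gene were deposited by the authors beside them and served only as another scaling. The aligner, read length, strand protocol and hour of harvest were not given in the sources used here. RNA integrity scores were at least 6.5, and libraries were made with a BGI kit for a DNBseq sequencer, per the labels' protocols.

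Counts were rounded and tested with edgeR 4.0.16 in R 4.3.3: filterByExpr left 19059 of 33323 loci (8990 were at 0 in all libraries), TMM factors ran from 0.9543 to 1.0557, and all 12 libraries entered 1 quasi-likelihood model that has a mean for each genotype (8 residual degrees of freedom, common biological coefficient of variation 5.1%). The 2-sided tests were jazD cdk8-1 against jazD, cdk8-1 against Col-0 and their difference (interaction), with Benjamini-Hochberg adjusted p-values over all genes tested. The other comparisons with Col-0 share libraries with these and gave values only. A standard error is the log2 fold over the root of its F statistic. The p-values measure the spread between pools, and intervals on counts cover counting error only. Limma 3.58.1, DESeq2 1.42.0, other scalings and filters, left-out libraries and a replicate block were alternatives. On simulated counts of this comparison over 18944 genes, the calls recovered 54 of 67 changes of 1.5-fold, 60 of 67 of 2-fold and 66 of 66 of 4-fold, with 20 false calls. The simulation kept all other genes equal between jazD and jazD cdk8-1. It therefore does not show how many calls are false in the data, where 35.8% of genes were called, and does not test the scaling.

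Names came from a TAIR10.1 table, which matched 32835 loci. The comparison, the 35 gene lists and the tests were chosen with earlier results of these data known, and the families after values were seen. The lists planned 385 genes, of which 21 were left out because the table names their loci otherwise. Genes are named by a rule: the top 10 rises and top 10 falls by size among called genes with average log2 CPM of at least 1 and no overlap of libraries outside the chromosome 5 stretch, 5 of each inside it, *CDK8*, kinase module and *JAZ* genes, up to 4 members of each list by adjusted p, and the 5 largest interactions each way. Not every list member the rule picks is described, and further members were named after their values were seen. Same-numbered jazD and jazD cdk8-1 libraries did not deviate together (r from -0.055 to 0.017).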

Additional observations from a re-analysis of the deposited data

Results flagged for a closer look

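The effect of *cdk8-1* differed between jazD and intact *JAZ* genes, by the interaction term of the edgeR model at an adjusted p below 0.05, at 86 of 137 genes named in the text and tested, 54 of them with a negative and 32 with a positive difference. Many of these genes were named for large changes or large interactions, so their number is not read against the 16.5% of all genes tested. Each value is a difference of log2 effects, jazD less intact *JAZ* genes.
In the jasmonate and ethylene branch and its neighbours it was -8.34 at *PDF1.3*, -7.98 at *PDF1.2c*, -7.14 at *PDF1.2b*, -5.37 at *PDF1.2a*, -2.42 at *THI2.1*, -2.39 at *CHIB*, -1.88 at *ORA59* and -1.74 at *PR4*. Among other defence enzyme and amide genes it was -6.52 at *AACT1*, -5.60 at *DIN11*, -5.15 at AT4G16260, -5.00 at AT2G43590, -2.10 at AT3G23550, -0.83 at *ADC1* and -0.56 at *ADC2*. In the wound branch it was -2.85 at *NATA1*, -2.33 at *TPS10*, -1.67 at *JAL35*, -1.61 at *ARGAH2*, -1.38 at *VSP1*, -0.72 at *VSP2* and -0.31 at *CLH1*. For jasmonate synthesis, catabolism and signalling it was -0.60 at *LOX4*, -0.47 at *LOX2*, -0.50 at *AOS*, -0.73 at *AOC2*, -1.05 at *CYP94C1*, 0.38 at *MYC4* and -0.36 at *NINJA*. *JAZ* transcripts gave -2.75 at *JAZ8*, -1.75 at *JAZ5*, -1.58 at *JAZ10*, -0.51 at *JAZ9* and 0.86 at *JAZ1*. For indole glucosinolates and tryptophan it was -2.20 at *IGMT5*, -1.78 at *CYP81F4*, -1.33 at *MYB51*, -0.98 at *CYP79B3*, -0.38 at *CYP79B2*, 0.47 at *CYP81F1*, -1.27 at *TSB1*, -1.26 at *TSA1* and -0.64 at *ASA1*.
For aliphatic glucosinolates and myrosinases it was 0.92 at *CYP79F1*, 0.74 at *MAM3*, 0.35 at *SOT18*, 0.24 at *MYB28*, 0.43 at *CYP83A1*, 1.38 at *TGG2*, 0.43 at *TGG1*, -0.35 at *BGLU18* and -1.65 at *NAI2*. Sulfur, flavonoid and stress genes gave -1.97 at *APR3*, -1.57 at *LDOX*, -1.23 at *CHS*, -1.09 at *TT8*, -0.52 at *FLS1*, 0.66 at *MYB75*, -2.15 at *PR5* and -1.38 at *ZAT10*. Growth, photosynthesis, cuticle and clock genes gave 1.75 at *PRE1*, 0.68 at *CDKB2;2*, 0.49 at *RCA*, 0.32 at *GAPB*, 0.31 at *CER3*, -0.67 at *GPAT4*, 1.05 at *PRR9* and -0.57 at *TOC1*. Among the largest rises it was 2.41 at AT5G57890, 2.13 at AT5G35935 (0.18 and not called with TPM values and a pseudocount of 0.5), 1.46 at AT2G27420, 1.21 at *MES18*, 0.82 at AT1G11070 and 0.50 at AT1G62290. The other large positive values outside the chromosome 5 stretch were 2.71 at *MAPR2*, 2.67 at AT3G57880, 2.22 at AT4G01390 and 2.21 at *GolS2*. Falls inside the stretch gave -2.23 at AT5G45720, -1.20 at AT5G48540 and -1.13 at AT5G55450. Rises inside it gave 10.19 at AT5G50565, 9.83 at AT5G45490, 9.16 at AT5G49440, 8.34 at AT5G49640 and 7.94 at AT5G50665. These last 5 rest on 0 to 6 counts in all jazD libraries, so their fitted size depends on the prior count.
Without cdk8-1 replicate 3, the library with traces of defensin transcripts, the difference was 0.32 at *AACT1*, -3.22 at *PDF1.3*, -1.90 at *PDF1.2a*, -3.16 at *PDF1.2b*, -4.72 at *PDF1.2c*, -1.52 at *NATA1*, -0.66 at AT3G23550 and -0.28 at *VSP2*, and none of these was called. The calls of *JAZ8* (-2.63), *LOX4* (-0.56), *TT8* (-1.02) and *MYB28* (0.20) were lost as well with little change in size, and each was also lost when some other library was left out. Without cdk8-1 replicate 2 the difference at *TPS10* was -1.21 and not called, and those of *JAZ8* and *LOX4* were not called either.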

How the results depend on the processing

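The TPM values moved the counts the most; the 3 settings were a pseudocount of 0.5, a pseudocount of 0.1, and 0.5 without a filter. In jazD they gave 6498, 6499 and 6232 genes higher and 2076, 2048 and 2114 lower, with 490 and, unfiltered, 522 at least 2-fold lower. With intact *JAZ* genes 3935, 3913 and 3657 were higher and, unfiltered, 1696 lower, and the negative interactions numbered 1056 (0.1) and 955 (unfiltered). A test against 1.2-fold (glmTreat), stricter by construction, left 1020 higher and 1723 lower in jazD, 591 and 1076 with intact *JAZ* genes, and 437 positive and 547 negative interactions. Leaving out 1 library gave 2528 to 3292 genes higher and 3082 to 3783 lower in jazD, 274 to 307 at least 2-fold higher and 782 to 910 at least 2-fold lower. With intact *JAZ* genes the ranges were 1769 to 2299 and 2245 to 2657, and for the interaction 1182 to 1499 positive and 1273 to 1598 negative. Other scalings, filters and tools kept each of these counts within 1.5 times.

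Directions reversed in 3 genes: *NINJA*, a corepressor adaptor gene, from -0.13 ± 0.05 to 0.0148, 0.0150 and 0.0148 with TPM, the reference gene *PP2AA3* to 0.136 with unfiltered TPM, and the interaction of *AACT1* to 0.32 without cdk8-1 replicate 3 (range without 1 library -7.22 to 0.32). Apart from the TPM shift, which its scaling makes, the cause was not tested. The block for replicate number gave 3118 genes higher and 3522 lower in jazD, moved no count of calls over the genome by 1.5 times, and did not follow a pairing, since the labels give only numbers. Depth limits the folds of genes with few counts.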

Other observations

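Several gene lists are not described above. For each, 16.9% of all genes tested were higher and 19.0% lower. Of 8 genes for abscisic acid and cold responses, 4 rose and 1 fell: the chloroplast cold protein gene *COR15A* had 89.8, 84.8 and 85.2 CPM in jazD and 154, 146 and 155 CPM in jazD cdk8-1 (0.81 ± 0.10), and the dehydrin gene *RAB18* fell by 1.37 on the log2 scale. Of 15 phenylpropanoid and lignin genes 4 rose and 4 fell (9 and 3 with TPM values), with a median of 0.02; *4CL3*, of flavonoid supply, rose by 0.57 ± 0.08. Flowering time genes had 3 of 5 higher and none lower, or 3 higher and 1 lower without jazD replicate 2. Genes of the mitochondrial retrograde response had 1 of 4 higher and 1 lower. Of 2 heat shock genes tested, *HSP90.1*, which lies inside the chromosome 5 stretch, fell by 1.00. Without jazD replicate 2 its value was -0.68, and *HSP101* was then called higher (0.40, adjusted p = 0.0451, edgeR). Of 4 reference genes, 1 was called lower. Among markers of organs, 2 of 5 leaf genes were higher and 1 lower, 2 of 3 tested root genes were higher and 1 lower, and the 1 flower gene tested, *AG*, was higher. The call of *AG* was lost without jazD replicate 2 (1.31, adjusted p = 0.0755, edgeR).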
